A study of Homo sapiens with 15 samples.

Results

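Glycolysis and glucose uptake genes were followed across all 5 groups of MDA-MB-231 cells. The group holds 35 genes, taken by symbol from the deposited count table, and all 35 were among its 18858 genes. They cover the glucose transporters, the enzymes from hexokinase to lactate dehydrogenase, the lactate transporters, the pyruvate dehydrogenase kinases, the 2 subunits of pyruvate dehydrogenase E1 and 3 genes of the glycogen branch. MDA-MB-231 is an established human cell line from a triple-negative breast adenocarcinoma. The cells were left untransfected (Control), or were transfected with siRNA that has no target (siControl), with siRNA for YAP1 (siYAP), with siRNA for WWTR1, which encodes TAZ (siTAZ), or with both targeting pools together (siYAP+TAZ). Each pool had the same final concentration, so that siYAP+TAZ cells were exposed to more siRNA in total, and that difference cannot be told apart from the co-knockdown. Knockdown lasted 48 h and was followed by 5 to 6 h on gelatin, a substrate these cells degrade through invadopodia. All groups share 1 cell line and this culture on gelatin, and each consisted of 3 RNA-seq libraries. Numbers 16, 21 and 26 belong to Control, numbers 17, 22 and 27 to siControl, numbers 18, 23 and 28 to siYAP, numbers 19, 24 and 29 to siTAZ, and numbers 20, 25 and 30 to siYAP+TAZ.

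Glycolysis splits glucose into pyruvate, with hexokinase, phosphofructokinase and pyruvate kinase as its one-way steps. Lactate dehydrogenase turns pyruvate into lactate, whereas pyruvate dehydrogenase sends it to the mitochondria and is switched off by its kinases, PDK1 to PDK4. Many tumor cells export lactate even with oxygen at hand, and the transcription factor HIF-1, stabilized in low oxygen, is known to raise many genes of this pathway. YAP and TAZ are co-activators that act with TEAD factors and are restrained by the Hippo pathway.

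Raw read counts per library ranged from 18696737 to 30107312. Normalized counts, used throughout, are counts divided by the TMM-scaled library size relative to the mean library. A member is said to rise or fall when the adjusted p of edgeR's quasi-likelihood test, with Benjamini-Hochberg adjustment over all 18858 genes, was at most 0.05. The siRNA targets were lower in every targeted library than in any siControl library. YAP1 had 4202 to 4431 normalized counts in siControl, 761 to 2764 in siYAP and 1796 to 2240 in siYAP+TAZ. WWTR1 had 1579 to 1995 in siControl, 254 to 828 in siTAZ and 1123 to 1284 in siYAP+TAZ. In siYAP+TAZ the log2 fold change was -1.06 for YAP1 (edgeR adjusted p = 0.072) and -0.62 for WWTR1 (edgeR adjusted p = 0.2), so neither target passed the test there. Of 8 genes expected to be high in this line, 7 had at least 3960 in each library (VIM 24540 to 33934), and SPARC was low with 13.6 to 35.9. Of the 6 measured genes expected to be low, PTPRC, LYZ and PGR stayed at 12.8 or below, but ERBB2 had 2083 to 2927, GATA3 424 to 680 and EPCAM 244 to 407.

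The promoters of 5 members are shown because these genes include the largest changes (PFKFB4, ALDOC and PDK4) and textbook HIF-1 targets (PGK1 and LDHA). They were chosen after the values were seen. The windows run from 250 bases before to 50 bases after a start that RefSeq gives for the gene, 5′ to 3′ on the gene's strand, on GRCh38.p14. The GENCODE bounds given for each gene further on span all annotated isoforms and can begin elsewhere, as for PGK1 and PFKFB4. Capitals mark the letters ACGTG or GCGTG, the core of the hypoxia response element, on either strand. The palindrome CACGTG holds a match on each strand and counts as 2.
PFKFB4 (chr3:48556754-48557053, minus strand): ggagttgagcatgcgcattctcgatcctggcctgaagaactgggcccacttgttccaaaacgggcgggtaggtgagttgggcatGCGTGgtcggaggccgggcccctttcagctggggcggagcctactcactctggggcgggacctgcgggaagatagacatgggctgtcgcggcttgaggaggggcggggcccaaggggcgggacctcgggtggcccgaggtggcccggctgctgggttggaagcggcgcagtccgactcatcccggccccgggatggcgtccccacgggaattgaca
ALDOC (chr17:28576846-28577145, minus strand): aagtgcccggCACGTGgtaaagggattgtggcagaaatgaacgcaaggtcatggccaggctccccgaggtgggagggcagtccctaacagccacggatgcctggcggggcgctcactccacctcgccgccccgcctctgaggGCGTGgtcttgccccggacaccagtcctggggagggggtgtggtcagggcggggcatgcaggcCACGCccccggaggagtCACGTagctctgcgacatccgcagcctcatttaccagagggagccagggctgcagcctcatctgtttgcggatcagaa
PGK1 (chrX:78103998-78104297, plus strand): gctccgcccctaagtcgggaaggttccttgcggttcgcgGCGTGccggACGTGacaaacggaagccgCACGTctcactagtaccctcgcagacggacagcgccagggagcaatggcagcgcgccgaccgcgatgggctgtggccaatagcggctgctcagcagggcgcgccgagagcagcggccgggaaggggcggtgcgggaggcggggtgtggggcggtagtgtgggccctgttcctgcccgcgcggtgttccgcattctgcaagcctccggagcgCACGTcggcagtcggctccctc
LDHA (chr11:18394313-18394612, plus strand): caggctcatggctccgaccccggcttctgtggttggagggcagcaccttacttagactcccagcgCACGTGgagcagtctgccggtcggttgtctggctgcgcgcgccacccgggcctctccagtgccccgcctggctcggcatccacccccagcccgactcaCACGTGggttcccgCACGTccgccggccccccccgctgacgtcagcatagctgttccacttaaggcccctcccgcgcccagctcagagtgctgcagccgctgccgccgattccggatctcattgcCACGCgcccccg
PDK4 (chr7:95596467-95596766, minus strand): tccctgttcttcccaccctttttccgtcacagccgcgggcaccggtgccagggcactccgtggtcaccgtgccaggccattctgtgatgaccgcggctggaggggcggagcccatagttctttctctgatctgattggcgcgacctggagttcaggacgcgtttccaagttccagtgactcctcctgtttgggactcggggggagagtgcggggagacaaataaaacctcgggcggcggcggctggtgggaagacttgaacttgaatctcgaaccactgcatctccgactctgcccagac
ALDOC held 5 matches in its window, PGK1 4, LDHA 6 in the window shown, PFKFB4 1 and PDK4 0. RefSeq windows were given for 32 of the 35 members (63 windows, several per gene for some), and not for SLC2A3, PFKFB2 and SLC16A1. At least 1 match was found in 40 of the 63 windows (63.5%), beside 59.1% of the 16997 windows of all genes of the count table and 48.4% of all 34943 windows. ACGTG by itself was present in 36.5% of the members' windows, beside 24.8%, and GCGTG in 44.4%, beside 47%. Counted per gene, 30 of the 32 members (93.8%) had a match in at least 1 window, beside 68% of the 11778 genes of the count table with a window, but the members have more windows per gene (63 for 32 genes, beside 16997 for 11778). Among the members that rose in siYAP+TAZ, matches were present in 17 of 24 windows (70.8%), and among the other members in 23 of 39 (59.0%). Per gene, the 2 sets did not differ in this way, with a match in 14 of the 15 that rose and have a window and in 16 of the 17 others with one. CATTCC, the core of the TEAD motif, was present on either strand in 7 of the 63 windows (11.1%), beside 11.8% of those of all genes of the count table. These counts describe letters in a window and not binding.

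Knockdown of YAP and TAZ together was set against siControl, to ask how the pathway's RNA differed when both co-activators were targeted. Of the 35 members 16 rose and none fell. The genes that rose were SLC2A3, SLC2A6, PFKL, PFKFB4, ALDOA, ALDOC, TPI1, PGK1, ENO2, PKM, LDHA, PDK1, PDK2, PDK3, PDK4 and PGM1. Over all genes tested 9.97% rose and 8.39% fell. When a log2 fold change of at least 1 in size was also required, 3 members remained (PFKFB4, ALDOC and PDK4), where 3.46% of all genes passed. At an unadjusted p under 0.05 there were 22 members, beside 30.3% of all genes. The log2 fold change was above 0 for 28 members and its median over the 35 was 0.21, whereas over all genes 49.4% were above 0 and the median was -0.0048. In 19 members every siYAP+TAZ library lay above every siControl library and in 1, HK2, every library lay below, whereas 18.2% of all genes did not overlap in each direction. SLC2A3, PFKL, PFKFB4 and PDK4 were the 4 members whose siYAP+TAZ libraries lay above all 12 others, as did 5.1% of all genes. Reads of the 35 members made up 1.66%, 1.57% and 1.45% of all counts in siControl and 1.97%, 1.89% and 1.66% in siYAP+TAZ. In such bulk RNA, more RNA per cell and more cells with a transcript cannot be told apart.

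**Figure D1:**
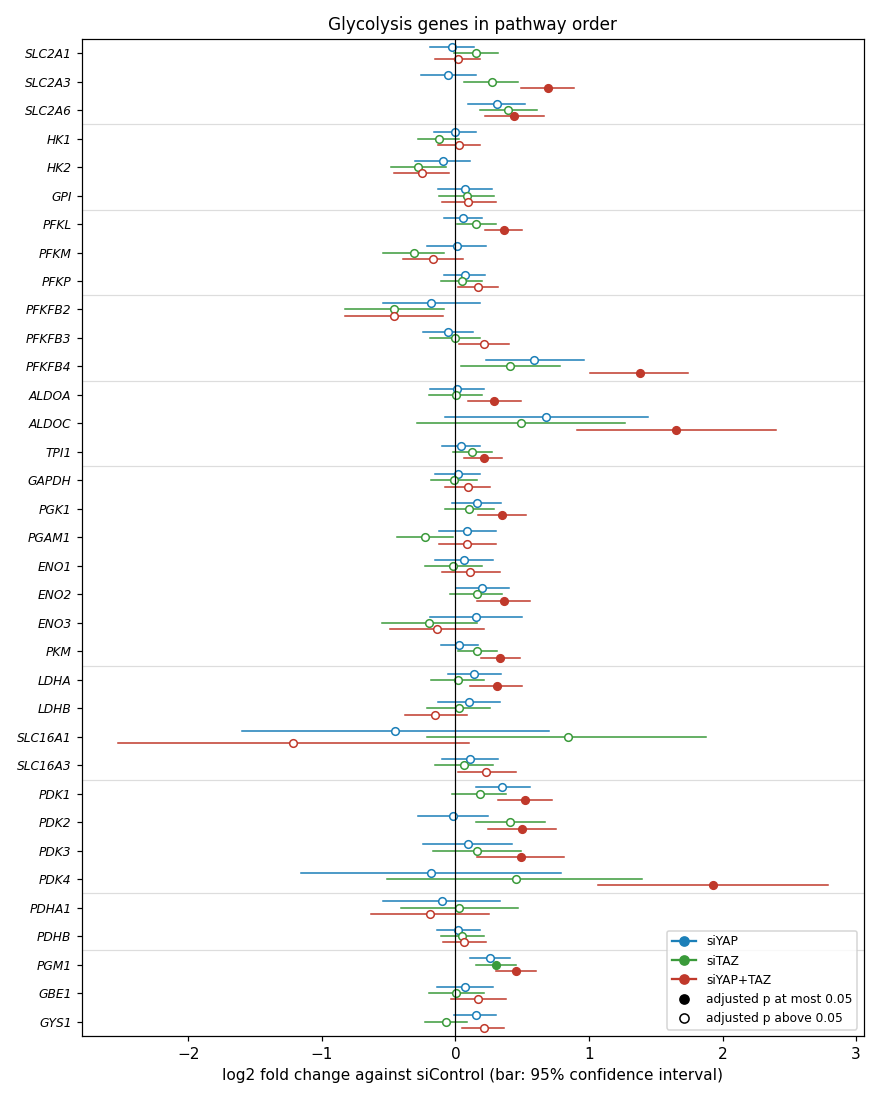
Log2 fold change of each of the 35 members against siControl (points) with its 95% confidence interval (bars) for siYAP, siTAZ and siYAP+TAZ, with genes in pathway order and grey lines between steps. Filled points mark an adjusted p of at most 0.05, which 16 members reached in siYAP+TAZ, 1 (PGM1) in siTAZ and none in siYAP.

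Of the 3 glucose transporters 2 rose. SLC2A3 encodes GLUT3, a transporter with high affinity for glucose (chromosome 12, 7919230 to 8019007, minus strand). SLC2A3 had 395, 347 and 397 normalized counts in Control, 460, 465 and 401 in siControl, 433, 411 and 435 in siYAP, 493, 563 and 545 in siTAZ, and 654, 696 and 795 in siYAP+TAZ. The 3 siYAP+TAZ libraries were the highest of all, and those of siTAZ lay above those of siControl without reaching siYAP+TAZ. Its log2 fold change in siYAP+TAZ was 0.69 (SE 0.096 and adjusted p = 6.7e-05 with edgeR). Of its 50-base stretches 14.8% also occur in other genes, mostly its close copy SLC2A14, so reads of both genes could not be told apart there. SLC2A6 encodes GLUT6, found mainly on lysosomes (chromosome 9, 133471094 to 133479127, minus strand). SLC2A6 had 1104, 1028 and 891 in Control, 782, 869 and 1040 in siControl, 1057, 1063 and 1208 in siYAP, 1077, 1282 and 1176 in siTAZ, and 1184, 1223 and 1237 in siYAP+TAZ. All 9 knockdown libraries lay above all siControl libraries, but Control overlapped with siYAP and siTAZ. The log2 fold change in siYAP+TAZ was 0.44 (SE 0.10 and adjusted p = 0.0056 with edgeR), and with Control as the reference it was 0.27 (edgeR adjusted p = 0.078). SLC2A1, the gene of GLUT1 and per exon length the most abundant of the 3, had 23225 to 27043 in siControl and 25156 to 25984 in siYAP+TAZ. Its log2 fold change was 0.017 with a 95% confidence interval from -0.15 to 0.18.

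None of the 3 genes for the first steps inside the cell passed the test. HK1 and HK2 encode hexokinases, which trap glucose as glucose 6-phosphate, and GPI isomerizes it to fructose 6-phosphate. HK2 had 4276, 4102 and 3602 in siControl and 3559, 3519 and 2985 in siYAP+TAZ, with all 3 co-knockdown libraries below siControl and a log2 fold change of -0.25 (SE 0.098 and adjusted p = 0.083 with edgeR). HK1 had a log2 fold change of 0.025 (95% confidence interval -0.13 to 0.18) and GPI of 0.097 (-0.10 to 0.30).

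Phosphofructokinase commits fructose 6-phosphate to glycolysis and is built from the liver, muscle and platelet subunits. PFKL, the liver subunit (chromosome 21, 44300051 to 44327376, plus strand), was the 1 member of the 3 that rose. PFKL had 4618, 4748 and 5002 in Control, 4510, 4721 and 5281 in siControl, 4970, 4935 and 5203 in siYAP, 5324, 5214 and 5599 in siTAZ, and 6115, 6182 and 6351 in siYAP+TAZ. Co-knockdown libraries were above all others, and the log2 fold change was 0.36 (SE 0.068 and adjusted p = 0.001 with edgeR). PFKP, the platelet subunit and the most abundant per exon length, had a log2 fold change of 0.17 (SE 0.073 and adjusted p = 0.12 with edgeR), and PFKM of -0.17 (SE 0.11 and adjusted p = 0.32 with edgeR).

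The PFKFB enzymes make and break fructose 2,6-bisphosphate, the strongest activator of phosphofructokinase. PFKFB4 (chromosome 3, 48517684 to 48562015, minus strand) rose 2.59-fold. PFKFB4 had 560, 499 and 405 in Control, 621, 570 and 415 in siControl, 974, 723 and 728 in siYAP, 836, 715 and 584 in siTAZ, and 1520, 1414 and 1245 in siYAP+TAZ. Libraries of siYAP lay between siControl and siYAP+TAZ without overlap, whereas those of siTAZ overlapped with siControl. Its log2 fold change was 1.38 in siYAP+TAZ (SE 0.17 and adjusted p = 7e-05 with edgeR), 0.59 in siYAP (SE 0.17 and adjusted p = 0.13 with edgeR) and 0.41 in siTAZ (SE 0.17 and adjusted p = 0.25 with edgeR). PFKFB3 had a log2 fold change of 0.21 in siYAP+TAZ (SE 0.088 and adjusted p = 0.11 with edgeR), and PFKFB2 of -0.46 (SE 0.18 and adjusted p = 0.08 with edgeR). In counts per kb of exon, PFKFB4 made up 14.5% ± 1.2 (SD, n = 3) of the 3 PFKFB genes in siControl and 28.2% ± 1.2 in siYAP+TAZ, and PFKFB3 79.3% ± 2.1 and 68.4% ± 1.1.

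All 3 genes of the aldolase step and triose isomerase rose. Aldolase splits the sugar into 2 triose phosphates, which TPI1 interconverts. ALDOC (chromosome 17, 28573115 to 28576948, minus strand), the aldolase best known from brain, rose 3.14-fold from a low level. ALDOC had 91.9, 65.3 and 47.3 in Control, 60.4, 77.7 and 44 in siControl, 129, 104 and 58.5 in siYAP, 118, 76.2 and 57.8 in siTAZ, and 247, 206 and 126 in siYAP+TAZ. Its lowest value in siYAP+TAZ, library 30, was below the highest in siYAP, library 18, and in each group the library numbered 26 to 30 was the lowest. The log2 fold change was 1.65 (SE 0.35 and adjusted p = 0.0042 with edgeR). ALDOA (chromosome 16, 30064164 to 30070457, plus strand) had 826, 858 and 961 in Control, 851, 874 and 791 in siControl, 906, 827 and 804 in siYAP, 939, 722 and 853 in siTAZ, and 1096, 1036 and 949 in siYAP+TAZ. Its co-knockdown libraries lay above siControl but not above all of Control, with a log2 fold change of 0.29 (SE 0.096 and adjusted p = 0.041 with edgeR). That call ended without any of the siControl libraries or without siYAP+TAZ 20 or 25 (0.25 to 0.32, edgeR adjusted p 0.066 to 0.13) and with Control as the reference (0.22, edgeR adjusted p = 0.12). For ALDOA, 42.8% of its exonic bases lie under another annotated gene on the same strand and 47.7% of its 50-base stretches occur elsewhere, and how such reads were counted is not stated. TPI1 (chromosome 12, 6867119 to 6870948, plus strand) had 14360, 14776 and 15818 in Control, 15548, 15613 and 15002 in siControl, 15922, 15195 and 16392 in siYAP, 17595, 16537 and 16197 in siTAZ, and 18660, 17977 and 16585 in siYAP+TAZ. Its groups did not overlap with siControl in siTAZ or siYAP+TAZ, and its log2 fold change in siYAP+TAZ was 0.21 (SE 0.068 and adjusted p = 0.042 with edgeR). Without any siControl library, or without siYAP+TAZ 20 or 25, the call ended (0.18 to 0.22, edgeR adjusted p 0.075 to 0.13).

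Of the 7 genes of lower glycolysis 3 rose, PGK1, ENO2 and PKM. PGK1 makes the first ATP of the pathway (chromosome X, 77910739 to 78129295, plus strand). PGK1 had 15917, 15080 and 14320 in Control, 16944, 15584 and 14385 in siControl, 17924, 17593 and 16847 in siYAP, 18821, 15150 and 16471 in siTAZ, and 20991, 20494 and 18195 in siYAP+TAZ. Only siTAZ library 19 reached into the range of the co-knockdown, and the log2 fold change was 0.35 (SE 0.086 and adjusted p = 0.0084 with edgeR). ENO2 encodes the neuronal enolase (chromosome 12, 6913745 to 6923698, plus strand). ENO2 had 2104, 2344 and 2143 in Control, 2154, 2289 and 1964 in siControl, 2788, 2468 and 2091 in siYAP, 2525, 2237 and 2379 in siTAZ, and 2964, 2660 and 2613 in siYAP+TAZ. The siYAP libraries spread from the siControl range into that of siYAP+TAZ, whose log2 fold change was 0.36 (SE 0.094 and adjusted p = 0.011 with edgeR) and which lost its call without siControl 27 or siYAP+TAZ 20 (0.31, edgeR adjusted p 0.053 to 0.057). PKM encodes pyruvate kinase M (chromosome 15, 72199029 to 72231819, minus strand). PKM had 68877, 67437 and 67631 in Control, 71906, 68399 and 67059 in siControl, 70696, 71137 and 69943 in siYAP, 80357, 76757 and 75343 in siTAZ, and 93195, 88512 and 79808 in siYAP+TAZ. Libraries of siTAZ lay above siControl, and siTAZ 19 exceeded siYAP+TAZ 30. The log2 fold change of PKM was 0.33 in siYAP+TAZ (SE 0.069 and adjusted p = 0.0022 with edgeR) and 0.16 in siTAZ (SE 0.069 and adjusted p = 0.24 with edgeR). Counts per gene do not separate its splice forms PKM1 and PKM2.

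The other 4 genes of lower glycolysis did not pass the test in siYAP+TAZ. GAPDH, which is widely used as a reference gene, had a log2 fold change of 0.092 (95% confidence interval -0.076 to 0.26), with 59163 to 64868 in siControl and 59988 to 71664 in siYAP+TAZ. ENO1, the main enolase, had 0.11 (-0.10 to 0.33), PGAM1, the phosphoglycerate mutase, 0.088 (-0.12 to 0.30) and ENO3, the muscle enolase, -0.14 (-0.49 to 0.21). Stretches of 50 bases shared with other genes made up 40% of PGAM1 and 21.6% of GAPDH, of whose exonic bases 17.6% lie opposite an annotated gene on the other strand.

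On the lactate side 1 of 4 genes rose. LDHA encodes the subunit of lactate dehydrogenase that favours lactate (chromosome 11, 18394560 to 18408425, plus strand). LDHA had 35810, 37744 and 36734 in Control, 39994, 37783 and 35168 in siControl, 43373, 41085 and 40360 in siYAP, 43634, 32790 and 37753 in siTAZ, and 50771, 47186 and 41607 in siYAP+TAZ. All siYAP and siYAP+TAZ libraries lay above siControl, whereas siTAZ spread to both sides of it. In siYAP+TAZ the log2 fold change was 0.31 (SE 0.094 and adjusted p = 0.03 with edgeR), and without siControl 22 or 27 or siYAP+TAZ 20 or 25 the call ended (0.25 to 0.31, edgeR adjusted p 0.075 to 0.13). LDHB, the other subunit, had 316 to 377 in siControl and 295 to 325 in siYAP+TAZ (log2 fold change -0.15, edgeR adjusted p = 0.41), with 33.4% of its exonic bases under another gene on the same strand. SLC16A3, the lactate exporter MCT4, had a log2 fold change of 0.23 (SE 0.10 and adjusted p = 0.13 with edgeR). SLC16A1, the gene of MCT1, was close to absent with 1.07 to 21.1 normalized counts in all libraries.

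All 4 pyruvate dehydrogenase kinases rose in siYAP+TAZ. PDK1 (chromosome 2, 172555373 to 172608669, plus strand) had 592, 625 and 579 in Control, 662, 558 and 517 in siControl, 811, 707 and 704 in siYAP, 680, 666 and 621 in siTAZ, and 907, 777 and 810 in siYAP+TAZ. Both siYAP and siYAP+TAZ lay above siControl, with a log2 fold change of 0.52 in siYAP+TAZ (SE 0.097 and adjusted p = 0.00094 with edgeR) and 0.35 in siYAP (SE 0.096 and adjusted p = 0.091 with edgeR). PDK2 (chromosome 17, 50094737 to 50112152, plus strand) had 243, 240 and 298 in Control, 304, 309 and 283 in siControl, 257, 327 and 301 in siYAP, 341, 454 and 398 in siTAZ, and 396, 410 and 458 in siYAP+TAZ. Here siTAZ, not siYAP, lay above siControl, with a log2 fold change of 0.50 in siYAP+TAZ (SE 0.12 and adjusted p = 0.0081 with edgeR) and 0.41 in siTAZ (SE 0.12 and adjusted p = 0.093 with edgeR). Exons of SAMD14 on the opposite strand overlap 38.6% of PDK2, and whether strand was used in the counting is not stated. PDK3 (chromosome X, 24465244 to 24550466, plus strand) had 244, 227 and 321 in Control, 276, 268 and 328 in siControl, 283, 264 and 384 in siYAP, 285, 313 and 378 in siTAZ, and 378, 382 and 457 in siYAP+TAZ. The library numbered 26 to 30 was the highest of each group, and the log2 fold change was 0.49 (SE 0.16 and adjusted p = 0.036 with edgeR), a call that ended without siControl 17 or 22 or any siYAP+TAZ library (0.40 to 0.54, edgeR adjusted p 0.052 to 0.14). PDK4 (chromosome 7, 95583499 to 95596516, minus strand) had the largest fold change of the members at 3.8-fold, from very low counts. PDK4 had 17.0, 16.3 and 2.63 in Control, 19.6, 23.1 and 11.8 in siControl, 13.0, 26.2 and 8.22 in siYAP, 18.1, 38.7 and 19.3 in siTAZ, and 60.6, 81.6 and 67.9 in siYAP+TAZ. Co-knockdown libraries were above all others, with a log2 fold change of 1.93 (95% confidence interval 1.07 to 2.79, edgeR adjusted p = 0.003). PDHA1, the E1 alpha subunit that these kinases phosphorylate, and PDHB, the beta subunit, had log2 fold changes of -0.19 (95% confidence interval -0.63 to 0.25) and 0.067 (-0.095 to 0.23). MAP3K15 lies opposite 19.3% of the exonic bases of PDHA1, with the same limit on strand as for PDK2.

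In the glycogen branch PGM1, GBE1 and GYS1 link glucose 6-phosphate to glycogen, and 1 of the 3 rose. PGM1, phosphoglucomutase (chromosome 1, 63593411 to 63660245, plus strand), was higher in every knockdown. PGM1 had 3121, 3120 and 3296 in Control, 3481, 3398 and 3034 in siControl, 3987, 3830 and 4060 in siYAP, 4203, 3976 and 4030 in siTAZ, and 4791, 4623 and 4165 in siYAP+TAZ. All 9 knockdown libraries lay above the 6 of Control and siControl. The log2 fold change was 0.45 in siYAP+TAZ (SE 0.071 and adjusted p = 0.00021 with edgeR), 0.30 in siTAZ (SE 0.071 and adjusted p = 0.032 with edgeR) and 0.26 in siYAP (SE 0.071 and adjusted p = 0.092 with edgeR). The call in siTAZ was lost without any 1 of its 6 libraries, siControl 17, 22 or 27 or siTAZ 19, 24 or 29 (0.24 to 0.34, edgeR adjusted p 0.055 to 0.11). GYS1, glycogen synthase, had 1963 to 2054 in siControl and 2187 to 2387 in siYAP+TAZ without overlap (log2 fold change 0.21, SE 0.074, edgeR adjusted p = 0.059). GBE1, the branching enzyme, had a log2 fold change of 0.17 (SE 0.099 and adjusted p = 0.26 with edgeR).

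**Figure D2:**
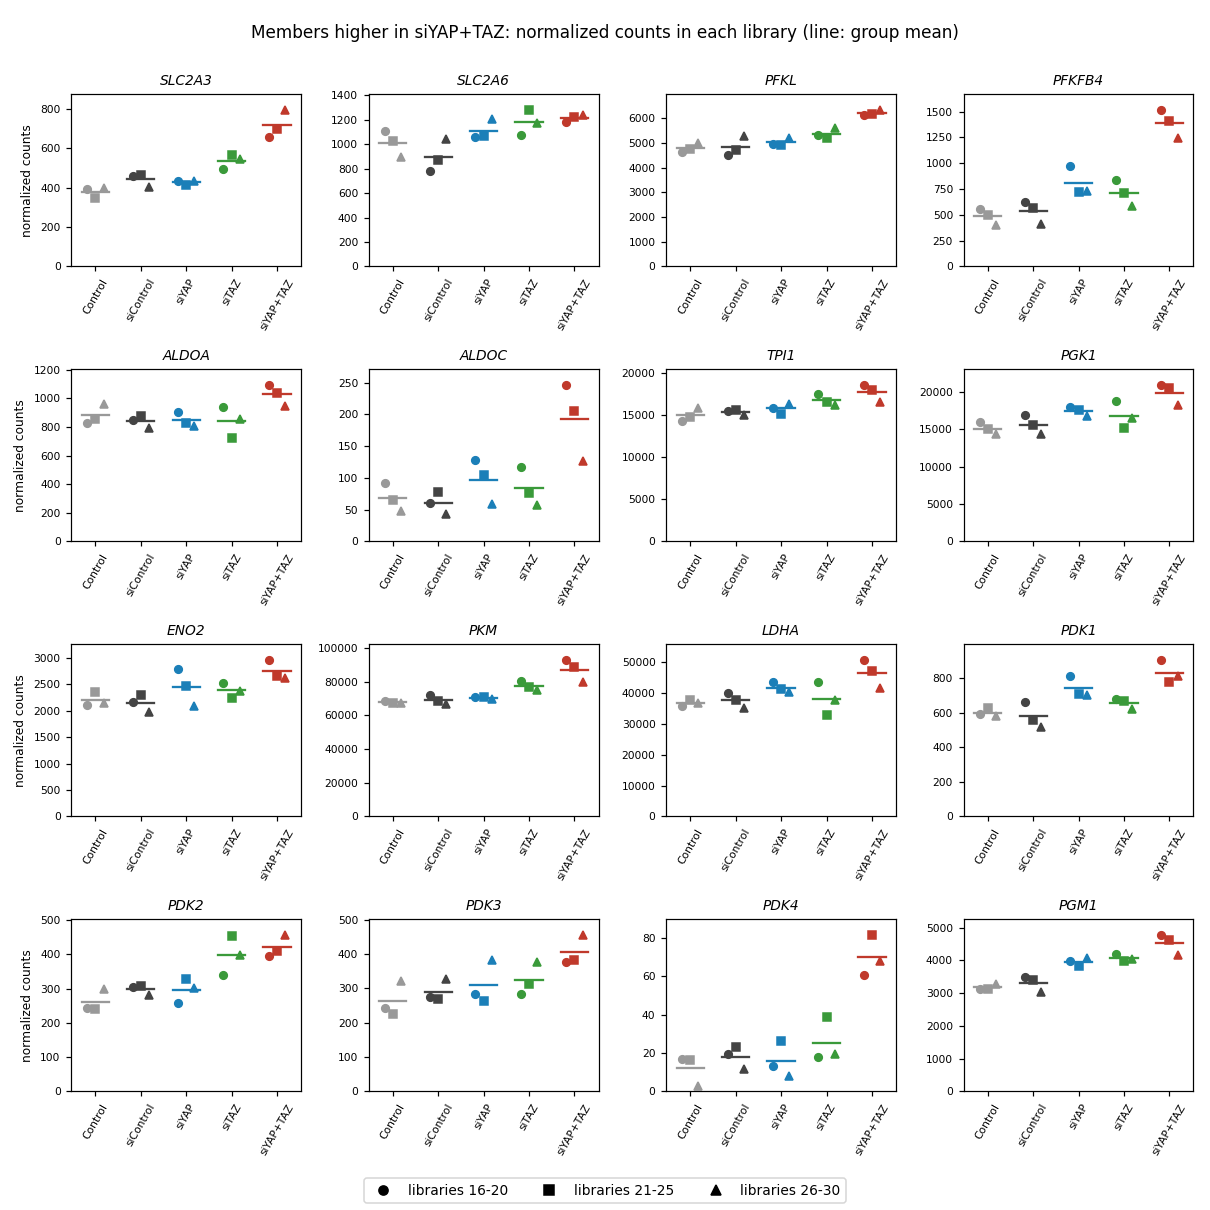
Normalized counts of the 16 members that rose in siYAP+TAZ, 1 point per library and a line at the mean of each group, with marker shapes for runs of consecutive library numbers and each axis starting at 0. In SLC2A3, PFKL, PFKFB4 and PDK4 the 3 siYAP+TAZ libraries lie above all 12 others.

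With a single co-activator targeted, fewer members passed the test. In siYAP none of the 35 did with edgeR, where 0.933% of all genes did. An unadjusted p under 0.05 was reached by 5 members in siYAP (11.9% of all genes), and DESeq2 called 3 (PGM1, PDK1 and PFKFB4, each higher), where it called 2.12% of all genes. In siTAZ 1 member rose, PGM1, where 2.03% of all genes changed, and DESeq2 called 2 (PGM1 and SLC2A6, each higher), where it called 4.25% of all genes. An unadjusted p under 0.05 was reached in siTAZ by 11 members (16% of all genes), of which HK2, PFKM, PFKFB2 and PGAM1 had log2 fold changes below 0. Every siYAP library lay above every siControl library in SLC2A6, PFKFB4, LDHA, PDK1 and PGM1, as in 9.65% of all genes, and no member was lower without overlap, as 9.86% of all genes were. The same held in siTAZ for 8 members, SLC2A1, SLC2A3, SLC2A6, GPI, TPI1, PKM, PDK2 and PGM1, as in 10.7% of all genes, whereas PFKM alone was lower without overlap, as 10.2% of all genes were. Log2 fold changes above 0 were found for 25 members in siYAP (50.5% of all genes) and 25 in siTAZ (50% of all genes). The median log2 fold change of the 35 members was 0.065 in siYAP and 0.065 in siTAZ, beside 0.0025 and 0 for all genes. These comparisons and that of siYAP+TAZ share the siControl libraries.

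Transfection itself moved none of the members past the test. In siControl against Control edgeR called 0 of 35 members and 0% of all genes, DESeq2 called 0 members and 0% of all genes, and an unadjusted p under 0.05 was reached by 1 member (2.86%, beside 2.11% of all genes), SLC2A3 (log2 fold change 0.22, 95% confidence interval 0.014 to 0.43, edgeR adjusted p = 1). SLC2A3 was also the 1 member higher without overlap (2.53% of all genes), and none was lower (3.3%), while 23 members had a log2 fold change above 0 (50.9%). Set against Control, 15 members rose in siYAP+TAZ (10.4% of all genes), 14 of them among the 16 above, without SLC2A6 and ALDOA and with GYS1 in addition.

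Set directly against siYAP, siYAP+TAZ had 6 members higher and none lower. These were SLC2A3, PFKL, PFKFB4, PKM, PDK2 and PDK4. Of all genes 5.13% changed, 3.43% higher and 1.7% lower. Only PDK4 differed by at least 1 as well (0.742% of all genes), and 28 members were above 0 (49.1% of all genes). DESeq2 called 7 members, ALDOC in addition, and 6.85% of all genes. SLC2A3 differed by 0.75 on the log2 scale (SE 0.096 and adjusted p = 0.00017 with edgeR) and PDK4 by 2.11 (SE 0.41 and adjusted p = 0.0057 with edgeR), and both calls held without any 1 library. The other calls did not hold without some libraries. PFKL differed by 0.30 (edgeR adjusted p = 0.013) and lost its call without siYAP 18 or 23 or siYAP+TAZ 30 (0.28 to 0.29, edgeR adjusted p 0.05 to 0.069). PFKFB4 differed by 0.78 (edgeR adjusted p = 0.014) and lost it without siYAP 23 or 28 or siYAP+TAZ 20 or 25 (0.70 to 0.76, edgeR adjusted p 0.054 to 0.066). PKM differed by 0.30 (edgeR adjusted p = 0.014) and lost it without siYAP 18 or 23 or siYAP+TAZ 20 or 25 (0.25 to 0.30, edgeR adjusted p 0.051 to 0.082), and PDK2 by 0.52 (edgeR adjusted p = 0.019) and lost it without siYAP 18 or siYAP+TAZ 25 or 30 (0.42 to 0.53, edgeR adjusted p 0.052 to 0.11).

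Against siTAZ, siYAP+TAZ had 5 members higher and 1 lower. WWTR1 itself was lower in every siTAZ library than in any siYAP+TAZ library. The comparison is therefore not one of siYAP added to an equal TAZ knockdown. Of all genes 5.44% changed, 3.06% higher and 2.38% lower, and 30 members were above 0 (49.7% of all genes). DESeq2 called 9 members, all higher, and 6.99% of all genes, with PFKL, ALDOC, PGAM1 and LDHA in addition and without SLC16A1. PFKFB4 was higher by 0.96 (SE 0.17 and adjusted p = 0.0045 with edgeR), a call that held without any 1 library. SLC2A3 was higher by 0.43 (edgeR adjusted p = 0.014), but not past the test without siTAZ 19 or siYAP+TAZ 30 (0.35 to 0.37, edgeR adjusted p 0.053 to 0.056). GYS1 was higher by 0.28 (edgeR adjusted p = 0.035), and the call ended without siTAZ 24 or 29 or siYAP+TAZ 20 or 25 (0.24 to 0.30, edgeR adjusted p 0.065 to 0.14). PDK4 was higher by 1.48 (edgeR adjusted p = 0.039), and the call ended without siTAZ 19 or 29 or any siYAP+TAZ library (1.26 to 1.58, edgeR adjusted p 0.066 to 0.14). PDK1 was higher by 0.34 (edgeR adjusted p = 0.046) and SLC16A1, from at most 21.1 counts, lower with a log2 fold change of -2.05 (edgeR adjusted p = 0.049), and neither call held without any 1 of the 6 libraries of siTAZ (19, 24 and 29) and siYAP+TAZ (20, 25 and 30), with values of 0.28 to 0.39 (edgeR adjusted p 0.061 to 0.18) and -2.49 to -1.59 (edgeR adjusted p 0.053 to 0.21).

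Departure from the sum of the single knockdowns was tested as an interaction on the log2 scale. The limit from the unequal TAZ knockdown holds here as well. No member passed, beside 0.0106% of all genes, and DESeq2 called 0 members and 0.111% of all genes. An unadjusted p under 0.05 was reached by 3 members (8.57%, beside 5.85% of all genes), SLC2A3 (0.48, 95% confidence interval 0.19 to 0.77, edgeR adjusted p = 0.52), PFKFB3 (0.27, 0.013 to 0.54, edgeR adjusted p = 0.82) and PDK4 (1.66, 0.37 to 2.96, edgeR adjusted p = 0.72).

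Levels between genes were compared as normalized counts per kb of exon, with the exon length of all annotated isoforms. In siControl GAPDH was highest, followed by ENO1, PKM, LDHA, TPI1, SLC2A1, PGK1 and SLC16A3, and none of these 8 overlapped with its neighbours in that order. GAPDH had 24692 to 27074 per kb, ENO1 11627 to 13247 and PKM 7823 to 8389. In the middle of the order, PFKL, ENO2, GBE1, PFKFB3, GYS1 and PDHA1, with 404 to 592 per kb, each overlapped with the next and could not be ranked by their spread. SLC16A1 (0.676 to 1.61 per kb) and PDK4 (2.60 to 5.09) were lowest. PDK3 (15.4 to 18.8) came next by its mean but overlapped with ALDOC (16.8 to 29.7). ALDOA stood at 206 to 228 per kb, well below TPI1 at 5556 to 5783, with the limit on its counting given above. Members of all levels were among those that rose, from PKM to PDK4.

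**Figure D3:**
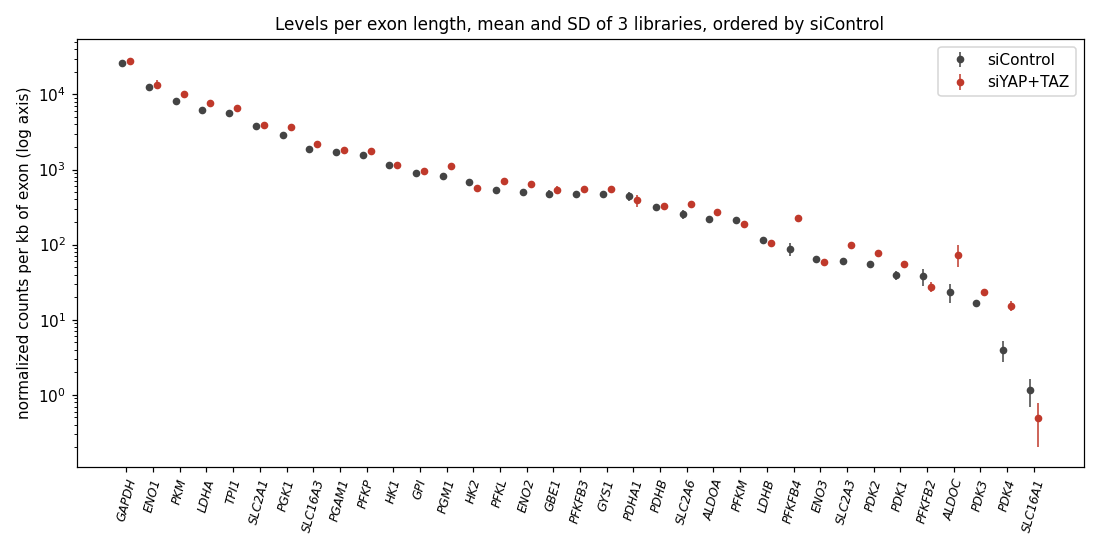
Normalized counts per kb of exon of the 35 members on a log axis, as the mean and SD of 3 libraries in siControl (black) and siYAP+TAZ (red), ordered by siControl. Levels run from GAPDH at 24692 to 27074 per kb to SLC16A1 at 0.676 to 1.61, and the gap between the groups is widest for PFKFB4, ALDOC and PDK4 among those that rose.

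Where several isoenzymes serve 1 step, the share of 1 of them in the counts per kb was computed in each library. Of 8 shares, 5 did not overlap between siYAP+TAZ and siControl. ALDOC made up 9.5% ± 2.0 (SD, n = 3) of ALDOA and ALDOC in siControl and 21.2% ± 4.5 in siYAP+TAZ. Because of the overlapping gene and the shared sequence of ALDOA, this share is one of the counts as deposited and not of aldolase RNA. SLC2A3 made up 1.57% ± 0.049 of SLC2A1 and SLC2A3 in siControl and 2.48% ± 0.23 in siYAP+TAZ, so that SLC2A1 remained by far the larger. HK2 made up 37.2% ± 2.0 of HK1 and HK2 in siControl and 32.8% ± 1.3 in siYAP+TAZ. The share of ENO2 among ENO1 and ENO2 was 3.83% ± 0.20 and 4.56% ± 0.47, and that of LDHB among LDHA and LDHB 1.83% ± 0.25 and 1.35% ± 0.18, with the overlap of LDHB given above. For each of these 5 the two-sided exact permutation test gave p = 0.1, the smallest that 3 against 3 libraries allow, and 0.16 after Benjamini-Hochberg adjustment over the 8 shares, so that none could reach 0.05. PFKP held 67.5% ± 1.9 of the phosphofructokinase subunits in siControl and 66.6% ± 2.2 in siYAP+TAZ (exact permutation p = 0.5). PDK1 held 35.3% ± 2.8 of PDK1 to PDK3 and 35.9% ± 3.2 (exact permutation p = 0.7). SLC16A3 held at least 99.8% of SLC16A1 and SLC16A3 in every library (exact permutation p = 0.2).

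**Figure D4:**
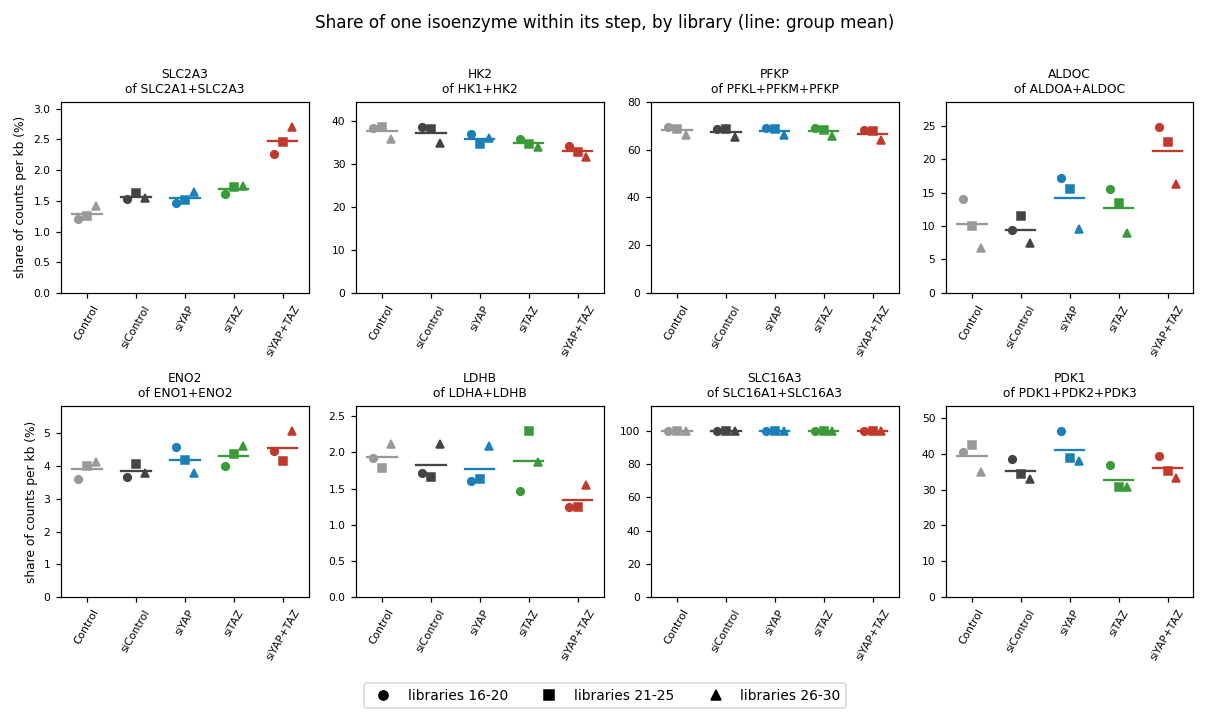
Share of 1 isoenzyme in the counts per kb of its step (percent), with 1 point per library, a line at each group's mean and axes that start at 0. SLC2A3, ALDOC and ENO2 have higher shares and HK2 and LDHB lower shares in all siYAP+TAZ than in all siControl libraries, with ALDOA and LDHB overlapped by other genes on their strand.

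Libraries with consecutive numbers (16 to 20, 21 to 25 and 26 to 30) hold 1 library of each group, although no label says that such a run is a set. Of the 35 members 24 were higher in siYAP+TAZ than in siControl in all 3 runs, as were 27.6% of all genes. Another 6 were higher in no run, for which the share of all genes was not computed. HK2, PFKFB2 and PDHA1 are among these 6, with log2 ratios of -0.26, -0.22 and -0.27 for HK2, -0.66, -0.43 and -0.18 for PFKFB2 and -0.32, -0.14 and -0.13 for PDHA1. The 16 that rose are among the 24 and were selected on these same libraries. The log2 ratio of ALDOC was at least 1.39 in each run, and in the 3 runs in order PFKFB4 had log2 ratios of 1.29, 1.31 and 1.58, PDK4 of 1.54, 1.74 and 2.34, and PGM1 of 0.46, 0.44 and 0.46.

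Genes of neighbouring pathways were grouped into lists by their function, and their counts in siYAP+TAZ stand beside the 9.97% of all genes that rose and the 8.39% that fell. Of 19 further genes of glycolysis and of sugar and monocarboxylate transport, relatives of its enzymes such as PGAM5 included, 2 rose and 2 fell in siYAP+TAZ. SLC2A12, the gene of GLUT12, rose with a log2 fold change of 1.45 (edgeR adjusted p = 0.0024) from 16.6 to 23.0 counts in siControl to 38.1 to 79.8, whereas PGAM5, a mitochondrial phosphatase, had -0.39 (edgeR adjusted p = 0.0029) and SLC16A7, the gene of MCT2, -0.41 (edgeR adjusted p = 0.0062). Of 11 genes for pyruvate entry into mitochondria 1 rose, PC, which carboxylates pyruvate to oxaloacetate (0.64, edgeR adjusted p = 0.011). Of 19 further glycogen genes 3 rose and 1 fell. PYGB, the brain glycogen phosphorylase, rose with 0.64 (edgeR adjusted p = 5.7e-05) and PPP1R3F, a glycogen-targeting phosphatase subunit, with 0.50 (edgeR adjusted p = 0.0013), and PGM2 fell with -0.64 (edgeR adjusted p = 3e-05).

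Of 11 pentose phosphate genes 3 rose and 1 fell (9.97% and 8.39% of all genes). H6PD, the enzyme of this pathway in the endoplasmic reticulum, rose 1.97-fold (log2 fold change 0.98, edgeR adjusted p = 4.9e-06), and PGLS, the cytosolic lactonase, had 0.42 (edgeR adjusted p = 0.0031). Of 4 measured gluconeogenesis genes G6PC3, a glucose 6-phosphatase, rose (0.39, edgeR adjusted p = 0.0037) and PCK2, the mitochondrial phosphoenolpyruvate carboxykinase, fell (-0.36, edgeR adjusted p = 0.025). Of 20 genes of the citric acid cycle and its cytosolic counterparts 2 rose and 4 fell, among them IDH1, the cytosolic isocitrate dehydrogenase, with 0.77 (edgeR adjusted p = 0.00014), ACO1, the cytosolic aconitase, with -0.30 (edgeR adjusted p = 0.0018) and fumarase FH with -0.35 (edgeR adjusted p = 0.0032). 

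Among 15 genes that sense sugar, energy or oxygen 3 rose and 2 fell (9.97% and 8.39% of all genes). HIF1A, the oxygen-regulated subunit of HIF-1, had 5545, 5666 and 4740 in siControl and 9829, 10456 and 7527 in siYAP+TAZ, all above siControl (log2 fold change 0.80, SE 0.15, edgeR adjusted p = 0.0019). It also rose in siTAZ (0.68, edgeR adjusted p = 0.031) and had 0.30 in siYAP (edgeR adjusted p = 0.46). MLXIPL, the glucose-responsive factor ChREBP, rose with 1.58 from 5.95 to 9.66 counts in siControl (edgeR adjusted p = 0.0094), and PRKAG2, a subunit of the energy sensor AMPK, fell with -0.49 (edgeR adjusted p = 0.00013). Of 21 hypoxia-responsive genes outside glycolysis 12 rose and 1 fell, beside the same shares of all genes. CA9, a carbonic anhydrase, had 29.8, 37.0 and 23.6 in siControl and 164, 155 and 129 in siYAP+TAZ (log2 fold change 2.29, edgeR adjusted p = 8.6e-07), VEGFA, the angiogenic factor, had 1.01 (edgeR adjusted p = 8.5e-07) and BHLHE40, a repressor, 1.24 (edgeR adjusted p = 1.8e-05). ADM, the adrenomedullin gene and the 1 that fell, had -1.17 (edgeR adjusted p = 0.0018). Oxygen, glucose and lactate in the cultures were not measured in these data, and the part of HIF-1 in the values of the members was not tested. Of 10 YAP/TAZ target genes all 10 fell in siYAP+TAZ, and those with the lowest adjusted p were AMOTL2 (-0.84, edgeR adjusted p = 1.1e-07), CCN1 (-1.17, edgeR adjusted p = 8.4e-06) and AXL (-0.51, edgeR adjusted p = 2e-04).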

How the data were processed

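Polyadenylated RNA of 15 libraries was analysed, 3 in each of 5 groups assigned by the sample titles. The authors trimmed reads with cutadapt, aligned them to GRCh38 with STAR 2.4.2a in the UTAP pipeline, counted them with STAR on GENCODE genes and deposited raw counts per gene, the values used here. Whether strand was used is not given in the sources used here. The authors also deposited normalized and rlog values in 30 columns, and their own fold changes and p-values in 70 columns, none of which were used.

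The study's minimum of 5 reads in any library was met by all 18858 genes. Counts were scaled by TMM (factors 0.943 to 1.03) and tested with the quasi-likelihood method of edgeR 4.0.16 under R 4.3.3 (robust, 1 coefficient per group, all 15 libraries in 1 fit), with Benjamini-Hochberg adjustment over all genes. The test was also run on simulated counts with known changes. Those counts were drawn without run effects, so they do not show how the test behaves where libraries deviate together. With totals of 18696737 to 30107312 counts, low genes such as PDK4, ALDOC and SLC16A1, carry large errors. The study describes 3 independent sets of experiments but not which libraries form a set, so the p-values measure the spread between these libraries.

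The members, the other gene lists, the promoter motifs and the tests were chosen with earlier results of these data known. Every member is described, with values in each library for those past the test in a knockdown against siControl, and from each other list at most the 3 with the lowest adjusted p that passed the test are named. A result that this rule would name is not reported here. ADM, GATA3, ERBB2 and EPCAM, the further markers and the promoters shown were named after their values were seen. Coordinates, exon lengths and shared 50-base stretches are from GRCh38 with GENCODE release 44, while the authors used release 34. Within-run log2 ratios were computed after adding 2 normalized counts. Isoenzyme shares were tested with exact two-sided permutation tests. Alternatives were a DESeq2 1.42.0 fit, other scalings and filters, Control as the reference, the fold threshold, runs of library numbers as a block, each library left out and, chosen after seeing the data, leaving out members that share much sequence with other genes.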

Additional observations from a re-analysis of the deposited data

How the results depend on the processing

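Of the 16 members that rose in siYAP+TAZ, 10 kept their call under DESeq2, the other scalings and filters, the block, Control as the reference and each siControl or siYAP+TAZ library left out, and none reversed. Their number was 16 or 17 with DESeq2, other scalings or other filters (GYS1 is the additional one, and 17.7% to 23.7% of all genes were called), 15 with Control as the reference (19.4%), 14 without the 5 members that share at least 20% of their sequence (chosen after seeing the data), and 11 to 18 with a library of the compared groups left out (13.3% to 15.6%). When a log2 fold change of at least 1 in size was also required, 3 remained in siYAP+TAZ against siControl (3.46% of all genes), 0 in siTAZ (0.212%), 1 in siYAP+TAZ against siYAP (0.742%) and 2 against siTAZ (0.78%).

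With the runs of consecutive library numbers as a replicate block, 24 members were called in siYAP+TAZ (21 up, and HK2, PFKFB2 and PDHA1 down), 5 in siYAP, 8 in siTAZ (4 up, 4 down), 12 against siYAP, 15 against siTAZ (13 up, 2 down), and 0 for siControl against Control and the interaction. The block raised the calls over all genes too, to 28.6% in siYAP+TAZ, 6.1% in siYAP, 10.3% in siTAZ, 14.6% against siYAP and 14.8% against siTAZ. For siControl against Control 0.0053% of all genes were called with it, and for the interaction 0.647%. The numbers are not shown to pair the libraries. Deviations from the group means correlated between -0.0498 and 0.616 within a run (median 0.391) and between -0.568 and 0.386 across runs (median -0.315), and 10 of 15 libraries correlated best with their own run.

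The counts for single knockdowns are small, and the share of all genes called, given in parentheses, moved as well. In siYAP, with none in the report, DESeq2 gave 3 (2.12%), library size only 1 (1.1%), Control as the reference 1 (1.46%) and leaving out a library 0 (0.143% to 0.728%). In siTAZ, with 1, DESeq2 gave 2 (4.25%), library size only 2 (2.41%), Control as the reference 3 (3.4%) and leaving out a library 0 to 4 (0.361% to 4.82%, both highest without siTAZ 19). Leaving out a library gave 3 to 6 against siYAP (2.2% to 3.67%) and 2 to 7 against siTAZ (2.5% to 5.06%). The interaction (0% to 0.647%) and siControl against Control (0% to 0.0053%) stayed at 0 members under every alternative run.

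The difference in the share of PFKP, -0.976 percentage points, ranged from -2.09 to 0.289 with a library left out and turned positive without siYAP+TAZ 30, and that of PDK1, 0.61 points, ranged from -1.15 to 2.19 and turned to -1.15 without siYAP+TAZ 20 and -0.502 without siControl 27. The other 6 shares kept their direction without length correction and without any library. The cause of these changes was not tested. At this depth, changes of genes under about 20 counts, SLC16A1 above all, could be seen only if large.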
